A study of Homo sapiens with 15 samples.

Results

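The gene set described here holds the ligands, receptors, antagonists and signal carriers of the TGF-beta and BMP pathway. Its members were picked by gene symbol, by a rule chosen with earlier results of these data known. They include the TGF-beta, BMP, GDF and activin or inhibin ligands, with their receptors and co-receptors. Also in the set are latent TGF-beta binding proteins, secreted antagonists, SMADs, SMURFs, ID genes and TGFBI. By that rule, 53 of the 15790 genes in the table were members. They were followed through 15 libraries of cultured human cells in 5 groups of 3.

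RPTEC/TERT1 cells, an immortalized line of proximal tubular epithelium from the kidney, were grown on 1 of 2 supports: LN/FN-silk, made from recombinant spider silk, and LN/PC. On each they were grown alone (monocultures) or with fHDF/TERT166 cells, an immortalized dermal fibroblast line (co-cultures), while a further group was of fibroblasts without epithelium. Seeding density per cm2 was 140000 for epithelial cells and 14000 for fibroblasts, which went in first, in a medium for the epithelial cells that holds insulin, transferrin, epidermal growth factor, hydrocortisone and serum, and cultures were collected at day 14. Each library pooled 3 to 8 membranes. Silk membranes were scraped off while those of LN/PC were cut out of the holder, so harvest and membrane cannot be told apart. The fibroblasts were scraped from the well bottom. The labels call these fibroblasts both monocultures and basolateral; the former is used here. Each cell type is 1 line, and the fibroblasts are dermal, not renal. Nothing in the labels says whether replicates came from separate cultures, so p-values measure only how far these samples differ, which may be technical spread.

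TGF-beta and activins signal through pairs of type II and type I receptor kinases to SMAD2 and SMAD3, whereas BMPs use a parallel set of receptors and SMAD1, SMAD5 and SMAD9. Both branches share SMAD4. TGF-beta is secreted in a latent form that latent TGF-beta binding proteins tether to the matrix, and BMPs are held in check by secreted antagonists such as noggin and chordin. In the kidney, TGF-beta is known as a driver of fibrosis and of loss of epithelial character, and BMPs as opposing signals.

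Values are normalized counts. A difference is given as log2 of (normalized count + 1) with its standard error (SE), and it is called where limma-trend with Benjamini-Hochberg adjustment over all tested genes gives an adjusted p under 0.05. Folds on this scale understate the change of genes with low counts. Levels are compared between libraries and not between genes, since no lengths enter the values.

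Library totals ran from 9.08 to 12.7 in units of 1e6 normalized counts. LN/PC monoculture 2 stood apart from the other libraries of its group for several members, as given with each. The epithelial label fitted its markers: summed over the 12 of 13 kidney tubule markers measured, the epithelial libraries held 55661 to 78939 and the fibroblast libraries 149.6 to 231, with CDH1, PAX2, KRT18, CDH6 and FXYD2 among those at 0 in fibroblasts. Of the 12, 11 were called lower and 1 higher in fibroblasts: CUBN, at 111, 193 and 149.7 there and 25.8 to 108 in the monocultures. The 14 fibroblast markers summed to 510530 to 582170 in fibroblasts, 98320 to 176690 in LN/PC co-cultures, 262 to 966 in silk co-cultures, 162 to 227 in silk monocultures and 89.8 to 144 in LN/PC monocultures. Of 5 endothelial and 4 leukocyte markers, 1 each was measured. The endothelial PECAM1 held 1.18 to 9.74 in silk and 16.1 to 97.7 in LN/PC monocultures, a called difference (-3.48 ± 0.88, adjusted p = 0.0199). The leukocyte and lysosomal CD68 was called higher with co-culture on silk (85.8 to 195.8 alone, 757 to 885 in co-culture, 2.49 ± 0.27) and on LN/PC (152 to 255 and 351 to 501, 1.07 ± 0.27), and held 523 to 581 in fibroblasts. The part of either marker's cells in the results was not tested. Estimated from 108 fibroblast-restricted genes with the members left out, the fibroblast contribution was 13.9%, 9.81% and 14.97% of RNA in LN/PC co-cultures (mean 12.9 ± 2.72, SD, n = 3), and on silk 0.0239%, 0% and 0.113% (mean 0.0457 ± 0.0597). All 3 LN/PC values lay above all 3 silk values (two-sided exact permutation p = 0.1, the lowest possible with 3 against 3). By the sum of the same genes the mean was 20.9% on LN/PC and 0.109% on silk. Both estimates take fibroblasts in co-culture to hold these genes at their level alone, which was not tested. In these bulk libraries fewer cells of a type and less RNA per cell cannot be told apart.

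The promoters of 4 members are shown. TGFBI, GREM1 and SMAD9 were called higher in co-culture on both membranes, though the SMAD9 calls were lost without 1 library or another. SMAD6 was picked because its window holds the palindrome GTCTAGAC. The sequences are from RefSeq (GRCh38.p14), 250 bases upstream of a start site, and 49 of the 53 members matched the table. Capitals mark matches, on either strand, to GTCTAGAC and CAGACA, which hold the core bound by SMAD proteins, and to GGCGCC, a GC-rich motif bound by SMADs of the BMP branch.
TGFBI, chr5:136028738-136028987, plus strand: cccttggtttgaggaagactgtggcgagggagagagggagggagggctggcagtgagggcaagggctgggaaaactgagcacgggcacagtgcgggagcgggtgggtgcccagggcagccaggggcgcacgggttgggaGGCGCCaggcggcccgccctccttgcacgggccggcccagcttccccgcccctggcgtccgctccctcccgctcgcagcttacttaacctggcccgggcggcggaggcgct
GREM1, first of its listed start sites, chr15:32717754-32718003, plus strand: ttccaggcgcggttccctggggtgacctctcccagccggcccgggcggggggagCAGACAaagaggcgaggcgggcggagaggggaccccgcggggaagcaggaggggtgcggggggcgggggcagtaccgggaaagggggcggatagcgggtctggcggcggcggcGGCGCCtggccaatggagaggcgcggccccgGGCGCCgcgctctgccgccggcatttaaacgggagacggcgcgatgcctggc
SMAD9, chr13:36920239-36920488, minus strand: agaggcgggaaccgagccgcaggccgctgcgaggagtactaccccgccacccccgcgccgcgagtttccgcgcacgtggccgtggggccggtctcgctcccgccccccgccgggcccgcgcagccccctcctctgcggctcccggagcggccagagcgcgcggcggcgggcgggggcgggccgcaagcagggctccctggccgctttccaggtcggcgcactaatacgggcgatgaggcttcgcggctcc
SMAD6, chr15:66701986-66702235, plus strand: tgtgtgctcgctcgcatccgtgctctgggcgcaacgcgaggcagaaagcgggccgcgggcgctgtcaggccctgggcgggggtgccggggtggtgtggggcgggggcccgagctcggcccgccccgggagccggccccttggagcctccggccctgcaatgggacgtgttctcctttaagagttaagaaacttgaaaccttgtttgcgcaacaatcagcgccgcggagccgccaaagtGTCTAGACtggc
The TGFBI window held 1 GGCGCC. The GREM1 window held 2 GGCGCC and 1 CAGACA, while the second GREM1 window (chr15:32718234-32718483) and the SMAD9 window held none of the 3 motifs. In SMAD6 the palindrome began at base 239 of the window. Among all 35116 windows of this length, 0.182% held GTCTAGAC, 16.4% GGCGCC and 13.6% CAGACA. Among the 81 windows of members, 1 held GTCTAGAC, 21 (25.9%) GGCGCC and 14 (17.3%) CAGACA. Windows of 1 gene can overlap, and a match is a description of these letters, not a binding site.

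**Figure D1:**
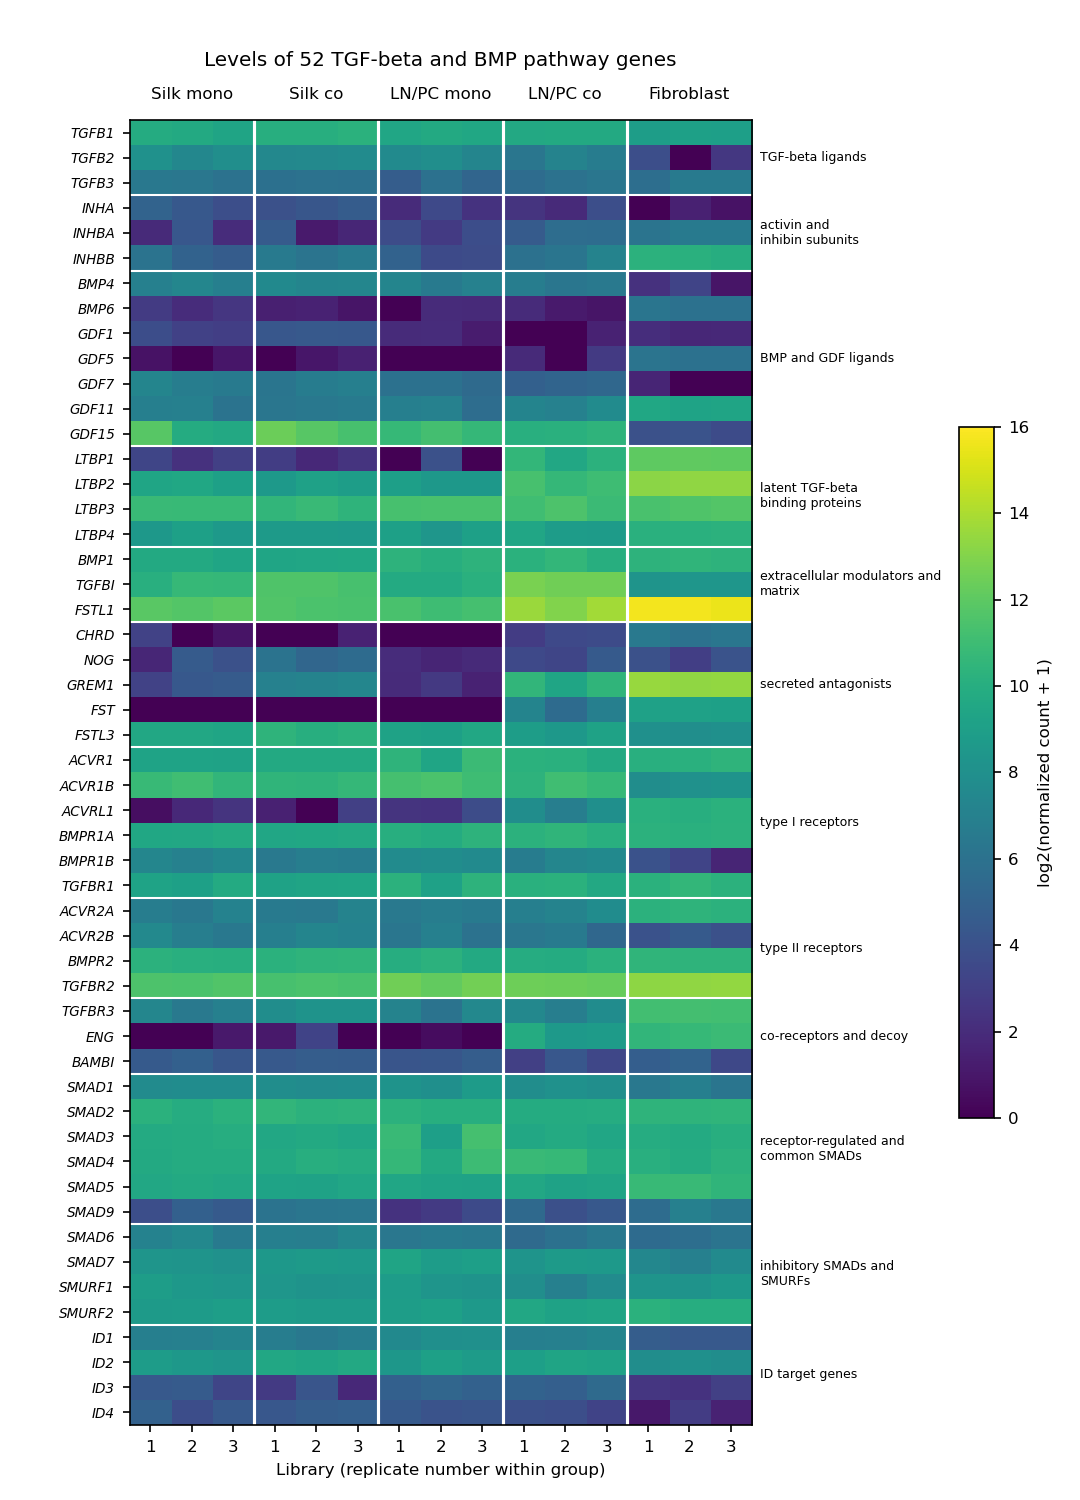
Level of 52 members (rows, grouped by role) in each of the 15 libraries (columns), coloured by log2(normalized count + 1); colours compare libraries within a row, not genes. LTBP1, ENG, GREM1, FST and ACVRL1 are high in fibroblasts, intermediate in LN/PC co-cultures and near 0 to low in the other epithelial libraries, whereas TGFBI is highest in LN/PC co-cultures and lowest in fibroblasts.

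Fibroblasts and epithelial cells differed in most of the pathway. Of 52 members tested, 45 were called, 27 higher and 18 lower in fibroblasts than in the epithelial monocultures, where 58.3% of all 14502 tested genes were called (28% higher, 30.3% lower). The median difference of members was 0.45, against -0.02 over all genes. Of 6 secreted antagonists, 4 were higher in fibroblasts (among them GREM1, FST and CHRD), 1 was lower (FSTL3, -1.40 ± 0.14, adjusted p = 3.97e-06) and NOG did not pass the test (1.04 ± 0.55, adjusted p = 0.13). All 4 latent TGF-beta binding proteins, ENG and ACVRL1 were higher in fibroblasts. All 4 ID genes, TGFB1, TGFB2, BMP4, GDF7, GDF15, ACVR1B and TGFBI were lower there. Of the 45 calls, those of BMP1, BMPR1A, BMPR2, SMAD2 and TGFBR1 were lost without 1 library or another, with adjusted p up to 0.142.

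The effect of the membrane on epithelial cells alone was taken from the monocultures. On silk, 11 of 49 tested members were called, 5 higher (GREM1, INHA, SMAD9, GDF7, FSTL1) and 6 lower (ACVR1, TGFBR2, SMAD7, ID1, BMP1, LTBP3), against 11.7% of 14433 genes (5.88% higher, 5.79% lower). The lower group thus held the TGF-beta type II receptor, a BMP type I receptor and the feedback inhibitor SMAD7. The median difference was 0.11 for members and 0.03 for all genes. The libraries of the 2 groups did not overlap for 20 members (40.8%), beside 26.4% of all genes. TGFBR2 and SMAD7 stayed called under every alternative run, and GREM1 under all in which it was tested but the deposited log2 values (0.47, adjusted p = 0.151); the other 8 calls were lost without at least 1 library (adjusted p 0.0541 to 0.175). Fitting only the libraries compared ended the calls of ACVR1, BMP1, FSTL1, ID1, INHA, LTBP3 and SMAD9 (adjusted p 0.0568 to 0.132), and epithelium-restricted scaling those of FSTL1, ID1 and LTBP3 (adjusted p 0.0528 to 0.0597). Without LN/PC monoculture 2, the library that stood apart, 17 members and 3208 genes were called. Leaving out silk monoculture 2 or 3 gave 4 and 6 members, and LN/PC monoculture 1 or 3 gave 7 and 5.

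**Figure D2:**
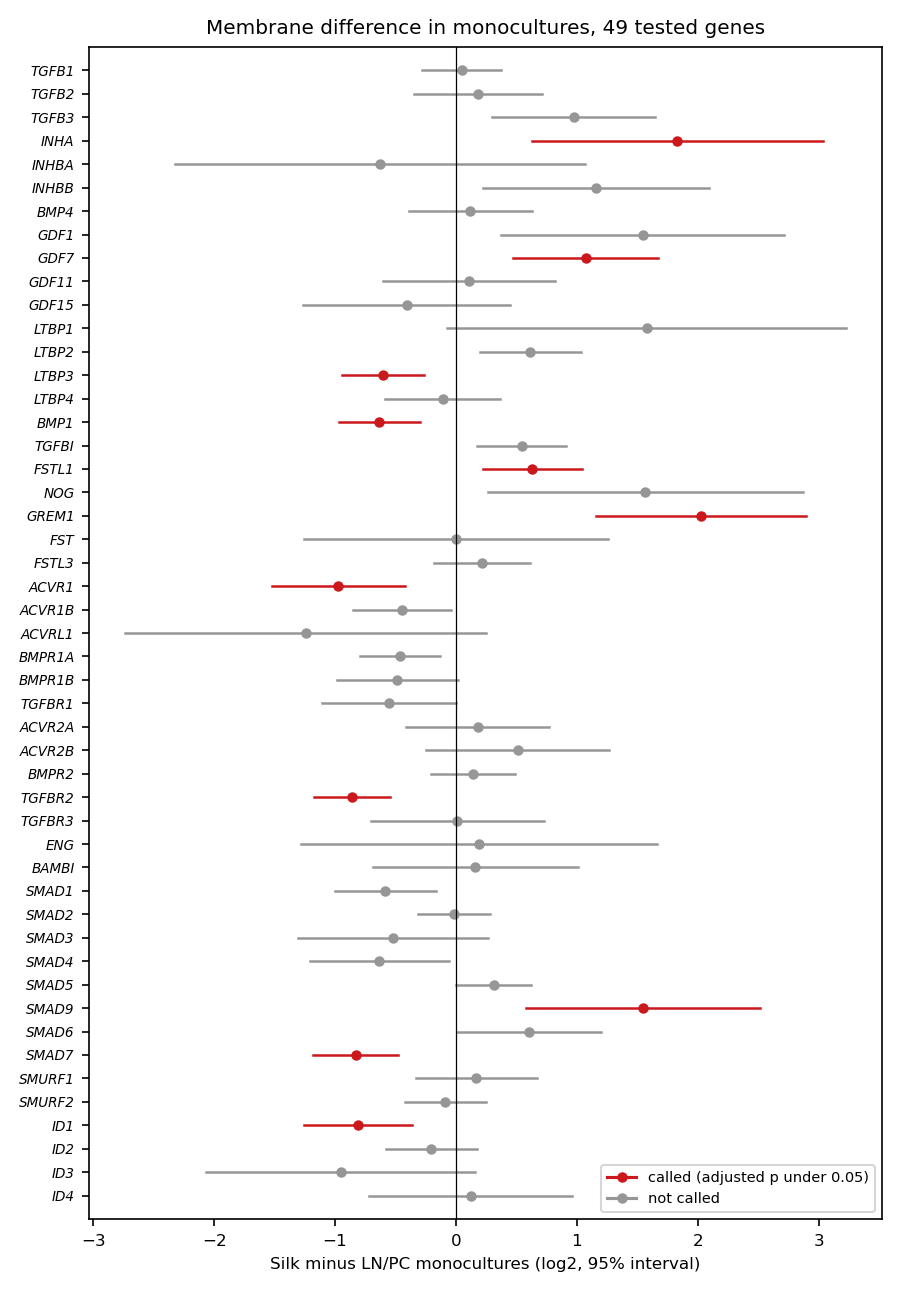
Difference between silk and LN/PC monocultures for the 49 tested members, as log2 on the horizontal axis with 95% intervals from limma-trend (3 libraries a group); red marks called members. The 6 members called lower on silk lie between -0.97 and -0.61, and the 5 called higher between 0.63 and 2.03.

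Co-culture on LN/PC was set against the monocultures of the same membrane. Of 49 members, 15 were called, 11 higher and 4 lower, beside 12.5% of all genes (7.8% higher, 4.72% lower). Higher were LTBP1, ENG, GREM1, FST, ACVRL1, TGFBI, INHBB, LTBP2, FSTL1, NOG and SMAD9; lower were TGFB2, SMAD7, ID1 and SMURF1. The median difference was 0.04 for members and -0.04 for all genes, and 23 members (46.9%) did not overlap between the groups, beside 25.9% of genes. Fibroblast RNA moved with this comparison, at an estimated 9.81% to 14.97% of each co-culture library, and all 14 fibroblast markers were called higher. With libraries scaled on 71 epithelium-restricted genes, which moved the median of all genes from -0.04 to 0.38, 20 members were called, all of them higher, and without LN/PC co-culture 1 the count in the usual scaling was 8 of 47, with ENG and FST not tested. Under that scaling the 4 lower calls were lost (adjusted p 0.165 for TGFB2, 0.62 for SMAD7, 0.221 for ID1 and 0.165 for SMURF1), as they were with only the libraries compared (adjusted p 0.0534 to 0.12), where SMAD9 was lost too (adjusted p = 0.0997).

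Co-culture on silk gave fewer calls. Of 49 members, 5 were called and all were higher: GREM1, TGFBI, ID2, SMAD9 and FSTL3, beside 3.78% of all genes (2.91% higher, 0.866% lower). The median difference was -0.05 for members and 0 for all genes, and 20 members (40.8%) did not overlap, beside 27.1% of genes. Other markers moved with this comparison: 3 of 14 fibroblast markers were called higher (8 at an unadjusted p under 0.05, median 1.52), as was CD68 (2.49 ± 0.27). Their part in the member calls was not tested. GREM1, TGFBI and ID2 stayed called under every alternative run. Leaving out silk monoculture 3 or any 1 silk co-culture gave 3 members, and leaving out LN/PC monoculture 2 gave 8. FSTL3 (adjusted p = 0.0379) and SMAD9 (adjusted p = 0.0343) were lost whichever 1 of the 6 libraries compared was left out, with adjusted p from 0.0539 to 0.16. Scaled on the epithelium-restricted genes, which moved the median of all genes to 0.20, 10 members were called, again all higher.

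Setting the co-cultures side by side, 29 of 49 members differed between silk and LN/PC, 13 higher and 16 lower on silk, beside 36.1% of all genes (18.5% higher, 17.6% lower). The median difference was -0.17 for members and 0.03 for all genes, and 40 members (81.6%) did not overlap, beside 53.7% of genes. The share of fibroblast RNA differed between these groups as given above. All 14 fibroblast markers were lower in silk co-cultures. Scaled on epithelium-restricted genes, the median of all genes moved to -0.10, and 9 members were called higher and 18 lower.

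Whether co-culture acted differently on the 2 membranes was tested as an interaction. It was called for 11 of 49 members, beside 7.73% of all genes (3.15% higher, 4.59% lower). In 8 of them (LTBP1, ENG, FST, GREM1, ACVRL1, LTBP2, FSTL1, TGFBI) the effect on silk was below that on LN/PC, and in 3 (FSTL3, GDF15, SMAD7) above it. Without LN/PC co-culture 1 the interaction was called for 7 of 47 members, since GDF15 and SMAD7 lost the call and ENG and FST could not be tested. The comparisons share groups, so values are set side by side and no overlap between them is read as a result.

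**Figure D3:**
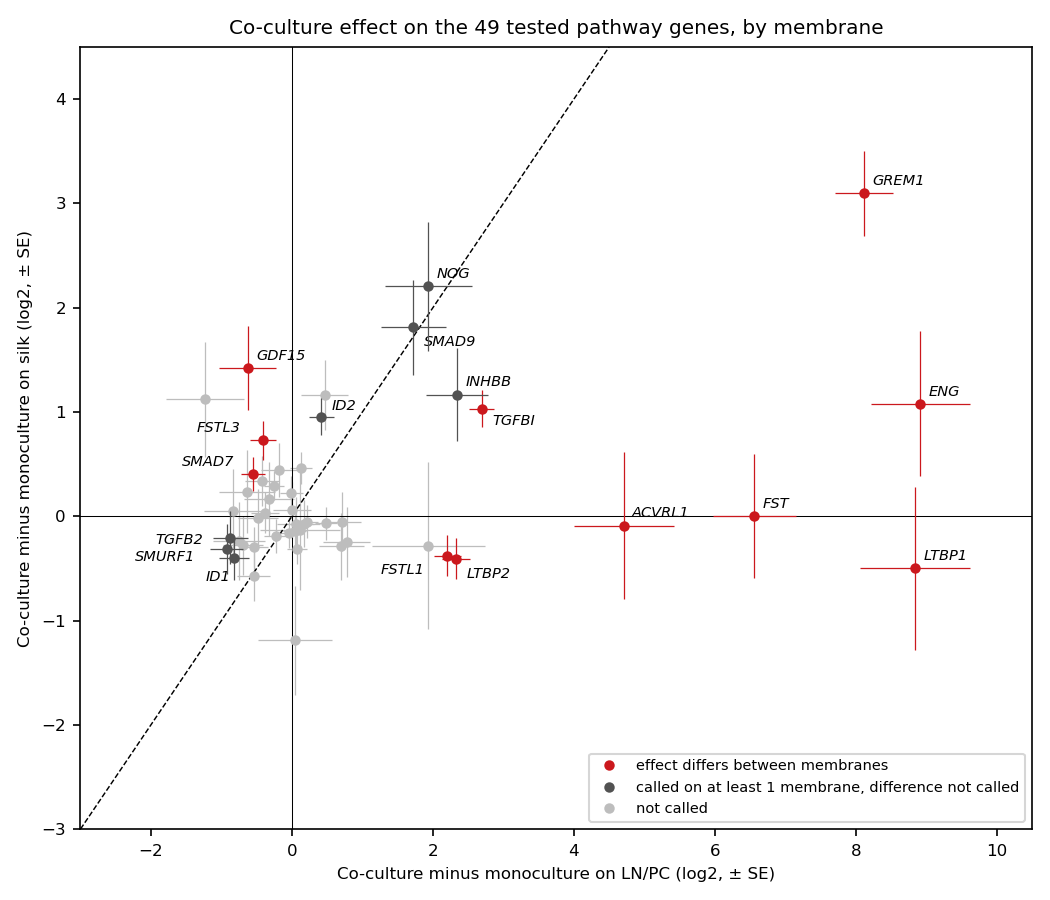
Co-culture minus monoculture on LN/PC (horizontal) against the same on silk (vertical) for the 49 tested members, in log2 units with SE bars; the dashed line marks equal effects. Red members had effects that differed between membranes by the interaction test: 8 lie below the line and FSTL3, GDF15 and SMAD7 above it, while SMAD9 and NOG lie near the line.

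Among the TGF-beta ligands, TGFB1, the most studied isoform, was at 911, 843 and 635 normalized counts in silk monocultures and at 702, 847 and 744 in LN/PC monocultures. The monoculture groups overlapped (log2 0.05 ± 0.15, 95% interval -0.28 to 0.37, adjusted p = 0.877). It reached 1027, 1041 and 1189 in silk co-cultures, above every library of both monocultures, against 798, 858 and 844 in LN/PC co-cultures and 475, 534 and 529 in fibroblasts. The change on silk did not pass the test (0.46 ± 0.15, adjusted p = 0.114), except with epithelium-restricted scaling (0.66, adjusted p = 0.0163). TGFB2 stood at 156 to 267 in the monocultures and silk co-cultures and at 77.2, 142 and 106 in LN/PC co-cultures, below all of them. Its fall in LN/PC co-culture was 0.87 ± 0.25 log2 units (log2 -0.87, adjusted p = 0.0308, and up to 0.159 without LN/PC monoculture 1 or 2 or LN/PC co-culture 1 or 3), and it was at 13.5, 0 and 5.12 in fibroblasts. TGFB3 passed no epithelial test, with 24.9 to 84.5 across the monocultures.

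Of the activin and inhibin subunits, INHBB, the activin beta-B chain, was a fibroblast gene here at 1233, 1122 and 983. It held 31.2, 11.1 and 12.3 in LN/PC monocultures and 62.1, 74.1 and 142 in LN/PC co-cultures, a rise of 2.34 ± 0.44 (adjusted p = 0.0017). On silk it went from 68.6, 32 and 24.3 to 92.9, 71.8 and 95.04, groups that did not overlap but did not pass the test (1.17 ± 0.44, adjusted p = 0.171). The co-cultures of the 2 membranes overlapped. INHA, the inhibin alpha chain, was low throughout, at 32.8, 20.3 and 13.3 in silk and 2.87, 10.6 and 4.09 in LN/PC monocultures (1.83 ± 0.57, adjusted p = 0.0469), lost without any 1 silk library, LN/PC monoculture 1 or 3 or LN/PC co-culture 1 (adjusted p up to 0.175). INHBA was at 1.2 to 22.9 in silk co-cultures and 22.9 to 51.9 in LN/PC co-cultures (-2.84 ± 0.80, adjusted p = 0.0118, and up to 0.0665 without silk co-culture 2 or 3 or LN/PC co-culture 2).

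Among the BMP and GDF ligands, GDF15 is a divergent and stress-inducible member of the family. It held 3641, 926 and 809 in silk monocultures, where replicate 1 lay far above the others, and 5415, 3672 and 2627 in silk co-cultures. The LN/PC cultures held 1700.2, 2349.7 and 1587 alone and 1115, 1123 and 1366 with fibroblasts. Fibroblasts held only 14.8, 16.3 and 11.4. GDF15 was thus higher in silk than in LN/PC co-cultures (1.64 ± 0.40, adjusted p = 0.00543), with no overlap. Its co-culture effect was 1.42 ± 0.40 on silk (adjusted p = 0.0635, and 2.11 with adjusted p = 0.000127 without silk monoculture 1) and -0.63 ± 0.40 on LN/PC (adjusted p = 0.342). The difference of the effects passed the test (2.05 ± 0.57, adjusted p = 0.0367), but not without silk monoculture 2 or 3, silk co-culture 1 or 2, LN/PC monoculture 1 or 2 or any LN/PC co-culture (adjusted p up to 0.116).

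GDF7, a BMP-branch ligand, was at 152, 111 and 97.2 in silk and 61.9, 61.5 and 44.8 in LN/PC monocultures. The silk libraries were all above the LN/PC libraries (1.08 ± 0.28, adjusted p = 0.0242, and up to 0.103 without silk monoculture 1 or 2 or LN/PC monoculture 3). The co-cultures showed the same order, with 72.8, 106 and 119 on silk and 29.1, 34.6 and 39.1 on LN/PC (1.49 ± 0.28, adjusted p = 0.000885), and fibroblasts were at 2.18, 0 and 0. BMP4 was at 153 to 191 in silk co-cultures and 78.2 to 108 in LN/PC co-cultures (0.89 ± 0.24, adjusted p = 0.0095), and at 0.841 to 8.6 in fibroblasts. GDF1 was near its limit of detection, at 19.2 to 21.1 in silk co-cultures and 0, 0 and 1.84 in LN/PC co-cultures. GDF1 shares a transcript with CERS1, so its counts are uncertain. GDF11, an activin-like ligand, was at 75.6 to 92.9 in silk and 128 to 213 in LN/PC co-cultures (-0.92 ± 0.34, adjusted p = 0.0426, and up to 0.14 without any 1 silk co-culture or LN/PC co-culture 1 or 3). BMP6 and GDF5 held at most 5.88 in any epithelial library and were not tested there. In fibroblasts they held 60.6 to 74.1 and 61.8 to 71.9.

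LTBP1, which tethers latent TGF-beta to the matrix, was nearly absent from epithelial monocultures, at 9.31, 3.82 and 7.33 on silk and 0, 14.5 and 0 on LN/PC. It held 1535, 785 and 1250.2 in LN/PC co-cultures, but 6.52, 2.65 and 4.33 in those on silk, and 4177, 4345 and 4233 in fibroblasts. The LN/PC co-cultures lay far above every other epithelial library. The fitted rise there (8.84 ± 0.78, adjusted p = 4.85e-07) depends on the added 1, since 2 of its baseline libraries were at 0. The interaction was -9.34 ± 1.101 (adjusted p = 4.61e-05).

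LTBP2, a microfibril protein of the same family, was at 514, 372 and 375 in LN/PC monocultures and 2631, 1628 and 2135 in LN/PC co-cultures (2.33 ± 0.20, adjusted p = 3.07e-07). On silk it was at 668, 726 and 535 alone and 409, 559 and 484 in co-culture (-0.41 ± 0.20, adjusted p = 0.306), with 9409, 10309 and 10298 in fibroblasts. LTBP3 was lower on silk in both culture types. It held 1803, 1755 and 1725 in silk and 2635, 2684 and 2727 in LN/PC monocultures (-0.61 ± 0.16, adjusted p = 0.0244, and up to 0.0722 without any 1 silk monoculture or LN/PC monoculture 1 or 3). The co-cultures held 1497, 1819 and 1357 on silk and 2159, 2900.1 and 1903 on LN/PC (-0.56 ± 0.16, adjusted p = 0.0126, and up to 0.0816 without silk co-culture 3 or LN/PC co-culture 2), and fibroblasts 2717, 3098 and 3378. LTBP4 passed no epithelial test, at 338 to 553 in monocultures, 386 to 423 in silk co-cultures, 443 to 701 in LN/PC co-cultures and 1124 to 1246 in fibroblasts.

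TGFBI, a matrix protein named for its induction by TGF-beta, rose in co-culture on both membranes. It held 1082, 1649 and 1592 in silk monocultures and 3036, 3054 and 2624 in silk co-cultures (1.03 ± 0.18, adjusted p = 0.00252). On LN/PC it held 882, 897 and 1158 alone and 7155, 5831 and 5946 in co-culture (2.69 ± 0.18, adjusted p = 1.82e-08). Fibroblasts held 310.4, 334 and 336, below every epithelial library. Between monocultures TGFBI overlapped (0.54 ± 0.18, adjusted p = 0.0545). Both co-cultures lay above every library of either cell type grown alone. Of the 49 tested members, TGFBI was the only one above both the LN/PC monocultures and the fibroblasts in every LN/PC co-culture, beside 3.07% of all tested genes. In silk co-cultures 7 members were above both the silk monocultures and the fibroblasts (FSTL3, GDF1, ID2, NOG, SMAD7, TGFB1, TGFBI), beside 7.91% of genes. Another 4 tested members were below both there (FSTL1, SMAD3, SMAD5, TGFBR2), beside 4.27% of genes. The rise of TGFBI was smaller on silk (interaction -1.66 ± 0.25, adjusted p = 0.000377), and all 3 TGFBI calls held under every alternative run.

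FSTL1, a secreted glycoprotein related to follistatin, held 2711, 2083 and 2504 in LN/PC monocultures, 12232, 7919.8 and 14328 in LN/PC co-cultures (2.21 ± 0.19, adjusted p = 4.77e-07) and 54590, 52948 and 47766 in fibroblasts. On silk it held 3794, 3406 and 4072 alone and 3166, 2779.5 and 2729 in co-culture, all below, without passing the test (-0.38 ± 0.19, adjusted p = 0.345). Between monocultures it was higher on silk by 0.63 ± 0.19 (adjusted p = 0.0452, and up to 0.114 without any 1 silk library or LN/PC monoculture). BMP1, a protease that matures procollagen and cuts chordin, was lower on silk. It held 852, 829 and 685 in silk and 1310.1, 1068 and 1291 in LN/PC monocultures (-0.63 ± 0.16, adjusted p = 0.0185, and up to 0.0699 without silk monoculture 3 or LN/PC monoculture 1 or 3). In co-cultures it held 689.8, 711 and 736 on silk and 1211, 1535 and 1053 on LN/PC (-0.81 ± 0.16, adjusted p = 0.00104), and in fibroblasts 1312, 1396 and 1277.

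GREM1, the BMP antagonist gremlin, was called in all 4 pairwise comparisons. It held 8.0, 19.9 and 23.7 in silk monocultures but 2.85, 5.26 and 1.84 in those on LN/PC, a difference of 2.03 ± 0.41 (adjusted p = 0.0058). In co-culture it reached 128, 139 and 159.5 on silk (3.10 ± 0.41, adjusted p = 0.000298) and 1489.7, 685 and 1421 on LN/PC (8.11 ± 0.41, adjusted p = 1.02e-09). Fibroblasts held 12078, 10366 and 10756. The 3 silk co-cultures lay above all 6 epithelial monocultures and below all 3 LN/PC co-cultures. The excess in silk co-cultures was 1.13 ± 0.143% of that in fibroblasts (SD, n = 3), beside a fibroblast RNA share of 0.0457 ± 0.0597%. Whether fibroblast RNA accounts for that excess was not tested.

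FST, the activin antagonist follistatin, was at 0 in all 9 epithelial libraries outside LN/PC co-culture. FST was at 147, 46.4 and 119 in LN/PC co-cultures and 559, 561 and 536 in fibroblasts. FST passed the filter on low values only through the LN/PC co-cultures, so it had to differ there, and it was not tested once any 1 of them was left out. The same holds for ENG. LTBP1 and ACVRL1 also passed the filter only through the LN/PC co-cultures, but they stayed tested without any 1 of them.

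FSTL3, another activin binder, showed the opposite order, since fibroblasts held only 266, 241 and 259. It held 756, 755 and 679 in silk monocultures and 1360.2, 1047 and 1245 in silk co-cultures (0.73 ± 0.19). LN/PC cultures held 585, 539.6 and 785 alone and 474, 372 and 603 in co-culture (-0.41 ± 0.19, adjusted p = 0.177). The interaction was 1.14 ± 0.26 (adjusted p = 0.0129; 0.081 with epithelium-restricted scaling), and silk co-cultures were above LN/PC co-cultures by 1.35 ± 0.19 (adjusted p = 5.20e-05). NOG (noggin) was at 2.22 to 3.04 in LN/PC and 2.24, 23.3 and 14.9 in silk monocultures, and at 65.9, 37.2 and 46.7 in silk and 10.4, 9.06 and 22.5 in LN/PC co-cultures. Its silk co-cultures were above those on LN/PC by 1.83 ± 0.62 (adjusted p = 0.0291, and up to 0.107 without silk co-culture 1 or 3 or LN/PC co-culture 1 or 2). The rise on LN/PC (1.93 ± 0.62, adjusted p = 0.0497) was lost under 14 of the alternatives, among them leaving out silk monoculture 3 or any 1 silk co-culture or LN/PC library (adjusted p up to 0.192). CHRD (chordin) was not tested among epithelial groups, at 0 to 7.84 outside LN/PC co-culture and at 64.0 to 86.7 in fibroblasts.

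**Figure D4:**
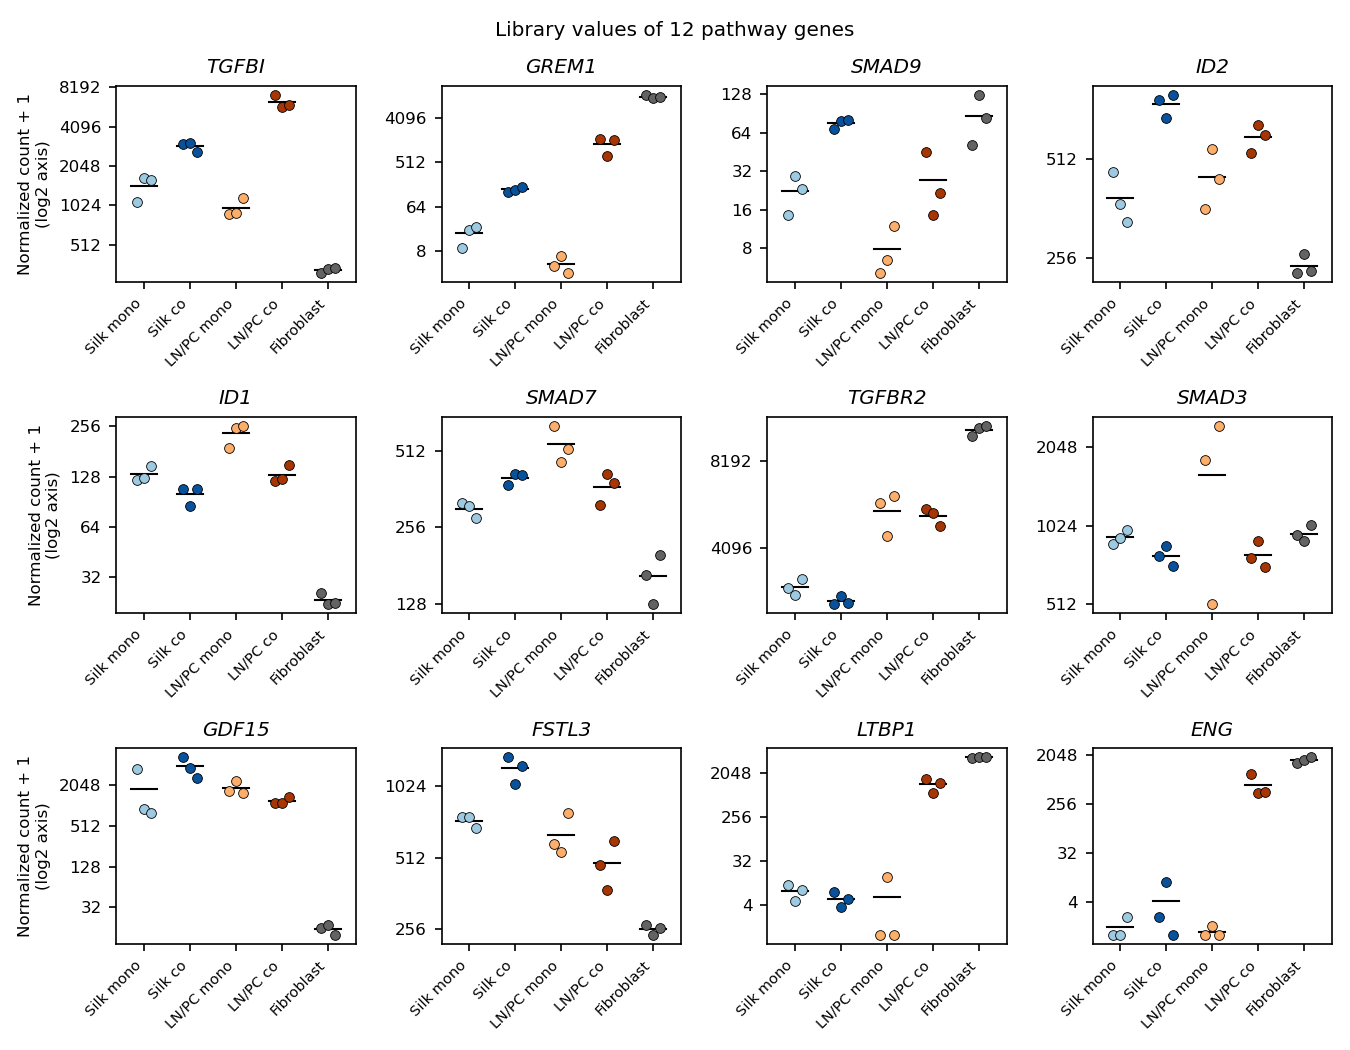
Normalized count + 1 (log2 axis) of 12 members in every library, with black bars at the mean of each group of 3. TGFBI lies above both monocultures of each cell type in both co-cultures, GREM1 is intermediate in silk co-cultures, TGFBR2 is lower in all silk libraries, and LN/PC monoculture 2 is the low point of SMAD3.

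TGFBR2, the type II receptor for TGF-beta, was lower on silk in both culture types. It held 2986, 2825 and 3200.2 in silk and 5839.7, 4499 and 6176 in LN/PC monocultures (-0.86 ± 0.15, adjusted p = 0.00207). Co-cultures held 2624, 2795 and 2639 on silk and 5566, 5401 and 4878 on LN/PC (-0.97 ± 0.15, adjusted p = 0.000132). The 6 silk libraries all lay below the 6 LN/PC libraries, and both calls held under every alternative run. Fibroblasts held 9991, 10620 and 10804. Co-culture did not pass the test on either membrane (silk -0.16, 95% interval -0.48 to 0.16; LN/PC -0.05, 95% interval -0.36 to 0.27).

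TGFBR1, its type I partner, held 629, 549 and 877 in silk and 1245, 581 and 1325 in LN/PC monocultures (-0.55 ± 0.26, adjusted p = 0.174). LN/PC monoculture 2 was the low value, and without it the difference was -0.93 (adjusted p = 0.00403). Co-cultures held 583, 649 and 688 on silk and 1126, 1173 and 814 on LN/PC (-0.68 ± 0.26, adjusted p = 0.0511), without overlap, and fibroblasts 1184, 1549.7 and 1268. ACVR1, a BMP-branch type I receptor, held 622, 630.2 and 594 in silk and 1356, 683 and 1901 in LN/PC monocultures (-0.97 ± 0.26, adjusted p = 0.0247). The call was lost without LN/PC monoculture 3 (-0.64, adjusted p = 0.122), LN/PC monoculture 1 or any 1 silk monoculture, and was -1.38 (adjusted p = 0.000115) without LN/PC monoculture 2. In co-culture ACVR1 held 826, 847 and 838 on silk, 1212, 1162 and 852 on LN/PC, and 1079, 1117 and 1375 in fibroblasts, and the co-cultures, though they did not overlap, did not pass the test (-0.34 ± 0.26, adjusted p = 0.312).

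BMPR1A, the other main BMP type I receptor, held 734, 761 and 874 in silk and 1052, 934 and 1305 in LN/PC monocultures (-0.46 ± 0.16, adjusted p = 0.0624). In co-cultures it held 715, 749.5 and 818 on silk and 1269, 1442 and 1105 on LN/PC, lower on silk by the test (-0.73 ± 0.16, adjusted p = 0.00194), with 1250, 1145 and 1218 in fibroblasts. ACVR1B, the activin type I receptor, was an epithelial gene, at 1318 to 2829 in epithelial and 227, 274 and 298 in fibroblast libraries. It passed no epithelial test. ACVRL1, a type I receptor best known from endothelium, was at 0 to 12.3 outside LN/PC co-culture, at 229.9, 112 and 250.4 in LN/PC co-cultures (4.71 ± 0.71, adjusted p = 0.000173) and at 1138, 1049.8 and 1172 in fibroblasts. Like LTBP1, it passed the filter on low values only through the LN/PC co-cultures, so it had to differ there.

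Among type II receptors, BMPR2 passed no epithelial test, at 827 to 1243 in monocultures, 1170.5 to 1402 in silk and 924 to 1166 in LN/PC co-cultures, and 1329 to 1408 in fibroblasts. ACVR2A was at 84.5 to 139 in the monocultures and silk co-cultures, but at 119, 139.8 and 223 in LN/PC co-cultures (0.71 ± 0.28, adjusted p = 0.117) and 1262, 1332 and 1245 in fibroblasts. ACVR2B was higher in silk than in LN/PC co-cultures (1.00 ± 0.36, adjusted p = 0.0385, 0.0535 with epithelium-restricted scaling, and up to 0.166 without any 1 silk co-culture or LN/PC co-culture 3). The co-receptor ENG (endoglin) was at 0, 0 and 1.14 in silk monocultures, at 0, 0.433 and 0 in those on LN/PC and at 1.15, 8.34 and 0 in silk co-cultures. It held 907, 411 and 432 in LN/PC co-cultures and 1469.9, 1652 and 1893 in fibroblasts. TGFBR3 (betaglycan) was a fibroblast gene at 2278, 2372 and 2240, and held 228, 293 and 299 in silk co-cultures against 161, 88.4 and 124 in silk monocultures (1.16 ± 0.34, adjusted p = 0.0695). On LN/PC it held 143, 66.6 and 179.7 alone and 179, 113 and 224 in co-culture. The decoy receptor BAMBI passed no epithelial test.

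A total of 11 members were at least 10-fold higher in fibroblasts than in each epithelial monoculture and reached 100 there, and their LN/PC co-culture level was set against the fibroblast share; 10 of them are given here. Their excess over the monocultures was a median of 17.1% of the excess in fibroblasts. ENG stood at 34.9 ± 16.8%, LTBP1 at 27.9 ± 8.92%, FST at 18.9 ± 9.43%, FSTL1 at 18.4 ± 6.62%, LTBP2 at 17.9 ± 5.23% and ACVRL1 at 17.1 ± 6.73% (SD, n = 3). GREM1 stood at 10.8 ± 4.03%, INHBB at 6.82 ± 3.96%, ACVR2A at 5.52 ± 4.64% and TGFBR3 at 1.95 ± 2.57%. The fibroblast RNA share of these libraries was 12.9 ± 2.72% by the median of the 108 markers and 20.9 ± 5.83% by their sum. LN/PC co-culture 2 had the lowest fibroblast share and the lowest value for 9 of the 11 members. In silk co-cultures the same excess was 6.86 ± 1.82% for TGFBR3, 4.195 ± 1.2% for INHBB and 1.13 ± 0.143% for GREM1, and 0.167% or less for the other 8.

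**Figure D5:**
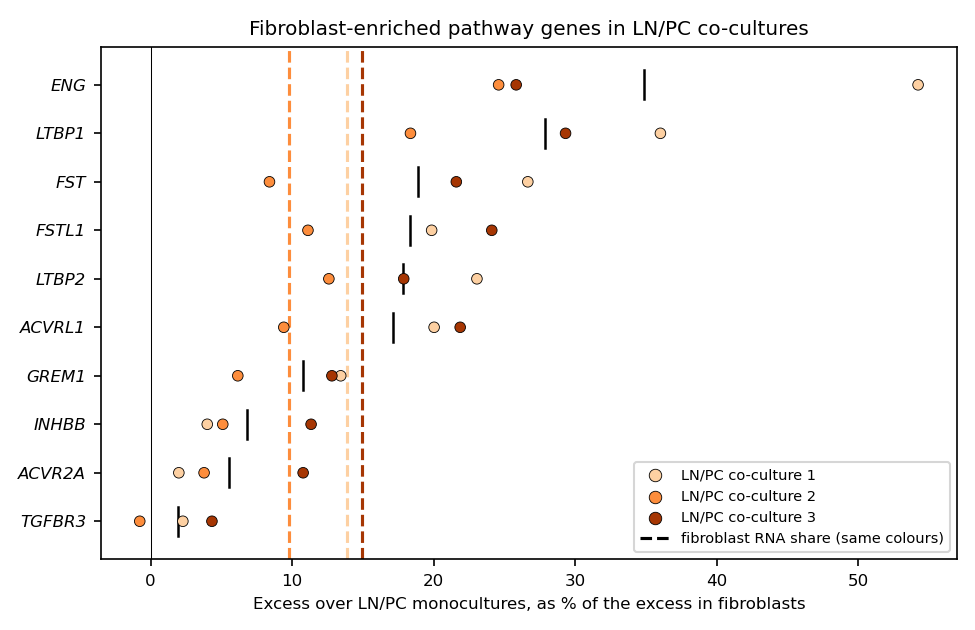
Excess of each LN/PC co-culture library over the LN/PC monocultures as a percent of the fibroblast excess, for 10 fibroblast-enriched members; points are libraries, short bars means and dashed lines the fibroblast RNA share of each library. ENG, LTBP1, FSTL1 and LTBP2 lie above the share in all 3 libraries, and GREM1, INHBB, ACVR2A and TGFBR3 below it. The share drawn is the median of the markers. Against their sum (22.4%, 14.5% and 25.9%), of ENG, LTBP1, FSTL1 and LTBP2 only LTBP1 stays above in all 3 libraries.

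Of the receptor-regulated SMADs, SMAD3 of the TGF-beta branch held 866, 913 and 986 in silk monocultures, against 1823, 511 and 2467 in those on LN/PC. LN/PC monoculture 2 lay below every other library and the other 2 above every other library. The groups overlapped (-0.52 ± 0.37, adjusted p = 0.37), and without that library the difference was -1.204 (adjusted p = 0.000213). SMAD4, the common SMAD, was at 839, 938 and 918 on silk and 1599, 851 and 1982 on LN/PC (-0.63 ± 0.27, adjusted p = 0.134), and -0.99 without that library (adjusted p = 0.00611). In co-cultures SMAD3 held 782, 850.0 and 716 on silk and 766, 895 and 709.9 on LN/PC, and SMAD4 827, 1039.9 and 954 on silk and 1807, 1652 and 907 on LN/PC. Fibroblasts held 940.5, 892 and 1027 of SMAD3 and 1098, 909.7 and 1240.1 of SMAD4.

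SMAD2 held 1206, 947 and 1166 in silk and 1258, 1029 and 1059 in LN/PC monocultures. In co-cultures it held 1473, 1264 and 1320.1 on silk and 917, 920.1 and 953 on LN/PC, higher on silk (0.54 ± 0.14, adjusted p = 0.00799; 0.0565 with epithelium-restricted scaling), with 1372, 1353 and 1442 in fibroblasts. The LN/PC co-cultures lay below all LN/PC monocultures and fibroblasts for SMAD2 and SMURF1, beside 2.98% of all genes. SMAD5 passed no epithelial test, at 587 to 841 in epithelial and 1423 to 1824 in fibroblast libraries, nor did SMAD1.

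SMAD9, a BMP-branch SMAD, was called in all 4 pairwise comparisons. It held 13.5, 28.6 and 22.3 in silk and 4.13, 5.53 and 10.8 in LN/PC monocultures (1.55 ± 0.46, adjusted p = 0.0383, and up to 0.127 without silk monoculture 2 or 3, any 1 silk co-culture or LN/PC monoculture 1). With a pseudocount of 10 (0.89, adjusted p = 0.0613), the deposited log2 values (0.41, adjusted p = 0.0853) or only the libraries compared (adjusted p = 0.132) that call was lost too. In co-culture it held 67.0, 77.9 and 79.6 on silk (1.81 ± 0.46) and 44.1, 13.7 and 20.6 on LN/PC (1.72 ± 0.46, adjusted p = 0.0199, and up to 0.142 without LN/PC monoculture 1 or LN/PC co-culture 1). The 3 silk co-cultures were above all other epithelial libraries. They differed from the LN/PC co-cultures by 1.64 ± 0.46 (adjusted p = 0.0112, and 0.0621 without LN/PC co-culture 2). Fibroblasts held 50.4, 125 and 82.5. The interaction was 0.09 ± 0.65 (95% interval -1.28 to 1.46, adjusted p = 0.956), an interval too wide to show that the effects were alike.

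SMAD7, the inhibitory SMAD that blocks TGF-beta receptors, was lower on silk when the epithelium grew alone, at 319, 310.0 and 277 against 642, 462 and 522 (-0.83 ± 0.17, adjusted p = 0.00557). In co-cultures it held 374, 415 and 411 on silk and 312, 413 and 383 on LN/PC, overlapping groups (0.12 ± 0.17, adjusted p = 0.587), and in fibroblasts 165, 127 and 199. The fall on LN/PC was 0.55 log2 units (log2 -0.55, adjusted p = 0.0399, and up to 0.201 without silk monoculture 2, any 1 silk co-culture, LN/PC monoculture 1 or 3 or LN/PC co-culture 1 or 3). The interaction was 0.95 ± 0.24 (adjusted p = 0.0189, and up to 0.0783 without silk co-culture 2 or 3, LN/PC monoculture 1 or LN/PC co-culture 1).

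SMAD6, the inhibitory SMAD of the BMP branch, held 137, 174 and 96.0 in silk and 79.4, 95.7 and 84.6 in LN/PC monocultures (0.61 ± 0.28, adjusted p = 0.17). In co-cultures it held 119, 116 and 161 on silk and 45.04, 60.7 and 85.4 on LN/PC, and differed by 1.07 ± 0.28 (adjusted p = 0.00834, and 0.0504 without silk co-culture 3). Fibroblasts held 46.8, 53.7 and 69.2. The silk libraries were all above the LN/PC libraries in both comparisons. SMURF1, a ubiquitin ligase for SMADs and receptors, was lower in LN/PC co-cultures (237, 124 and 207) than in LN/PC monocultures (455, 319.8 and 291; -0.93 ± 0.24, adjusted p = 0.016, and up to 0.0942 without LN/PC monoculture 1 or LN/PC co-culture 2). SMURF2 was higher in LN/PC than in silk co-cultures, at 773, 583 and 647 against 457, 413 and 412 (-0.63 ± 0.16, adjusted p = 0.00602), with 1187, 1012 and 1012 in fibroblasts and 411 to 535 in monocultures.

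The ID genes are direct targets of BMP-activated SMADs. ID1 held 121, 125 and 148 in silk and 189, 250.5 and 256 in LN/PC monocultures, lower on silk (-0.81 ± 0.21, adjusted p = 0.0231, and up to 0.0911 without silk monoculture 1 or 2 or LN/PC monoculture 3). In LN/PC co-cultures it was at 119.9, 122 and 149.6, lower than alone (-0.82 ± 0.21, adjusted p = 0.0172, and up to 0.0754 without LN/PC co-culture 1 or 2), and in silk co-cultures at 107, 84.8 and 107 (-0.40 ± 0.21, adjusted p = 0.364). ID2 held 467, 374 and 329 in silk monocultures and 774, 680.2 and 801 in silk co-cultures, above every other library (0.96 ± 0.18, adjusted p = 0.00531). On LN/PC ID2 went from 359.6, 547 and 446 to 533, 647 and 605 (0.42 ± 0.18, adjusted p = 0.147), and the effects on the 2 membranes did not differ by the test (0.54 ± 0.25, adjusted p = 0.224). Fibroblasts held 21.2 to 24.9 of ID1 and 230.0 to 263 of ID2. ID3 was lower in silk than in LN/PC co-cultures (5.64, 17.7 and 2.57 against 31.4, 27.1 and 44.7; -2.18 ± 0.53, adjusted p = 0.00469), and ID4 passed no epithelial test.

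Other genes of the pathway were read from 6 lists, with 102 genes measured, chosen like the members with earlier results of these data known. Of 30 TGF-beta response genes, 3 were called higher and 2 lower in silk than in LN/PC monocultures, beside 5.88% and 5.79% of all genes. In LN/PC co-cultures 13 were higher and 5 lower than in LN/PC monocultures, where 7.8% of all genes were higher and 4.72% lower. The fibroblast RNA share was estimated at 12.9% there. In silk co-cultures 5 were higher and 2 lower than in silk monocultures, beside 2.91% and 0.866% of all genes. Silk co-cultures against those on LN/PC had 3 higher and 12 lower, beside 18.5% and 17.6% of all genes. The medians in this order were -0.05, 0.34, 0.03 and -0.33, and over all genes 0.03, -0.04, 0 and 0.03. LOX, a collagen crosslinker, rose on silk from 1471, 1028 and 1179.7 to 3736, 4074 and 4706 (1.77 ± 0.17, adjusted p = 1.27e-05), and fibroblasts held 11250 to 12121. TAGLN rose on LN/PC by 6.23 ± 0.49, to 4031, 2241 and 3325, with 7348, 6872 and 8309 in fibroblasts. SNAI2 rose by 5.00 ± 0.45, to 174, 115 and 193, with 936, 861 and 859.5 in fibroblasts. PMEPA1, a feedback inhibitor, was lower in LN/PC co-culture (-1.59 ± 0.35, adjusted p = 0.00524). It held 824, 289.5 and 1241 alone, where LN/PC monoculture 2 was the low value, and 229, 224 and 209 in co-culture. On silk SKIL, a SMAD co-repressor, and ITGB6, a subunit of an integrin that activates TGF-beta, each had a log2 difference of -0.79 (adjusted p = 0.00318 and 0.00534).

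The extracellular modulators beside the members include KCP, a chordin-like secreted protein, at 189, 102 and 81.4 in silk and 50.9, 54.8 and 28.1 in LN/PC monocultures (1.42 ± 0.34, adjusted p = 0.0149, and up to 0.0726 without silk monoculture 1 or LN/PC monoculture 3). It reached 377, 457 and 385 in silk co-cultures (1.79 ± 0.34, adjusted p = 0.006) and 29.8, 49.5 and 26.8 in LN/PC co-cultures, and was listed at 0 in all fibroblasts. Of 15 such modulators, 6 were higher and 2 lower in silk than LN/PC monocultures, beside 5.88% and 5.79% of all genes. With co-culture on silk 2 were higher and 0 lower, beside 2.91% and 0.866% of all genes. With co-culture on LN/PC 6 were higher and 0 lower, beside 7.8% and 4.72% of all genes. The same shares of all genes apply to the list counts that follow. DCN, itself one of the 14 fibroblast markers, held 49.3 to 53.5 in LN/PC monocultures and 3656.5 to 10499 in LN/PC co-cultures (7.09 ± 0.33), with 52898 to 63119 in fibroblasts. Of 20 latent complex and activation genes, 4 were higher and 3 lower on silk alone, 0 higher and 1 lower with co-culture on silk, and 9 higher and 3 lower with co-culture on LN/PC. MMP2, a protease, was lower on silk (-1.25 ± 0.19, adjusted p = 0.000637), and the integrin subunits ITGB6 (-1.0 ± 0.15), ITGB3 (-0.89 ± 0.16) and ITGB8 (-0.84 ± 0.16; adjusted p = 0.0711 with epithelium-restricted scaling) were lower in LN/PC co-cultures than monocultures. Of 7 BMP response genes tested, 0 were higher and 1 lower on silk alone, none was called with co-culture on silk (3 had an unadjusted p under 0.05), and 3 were higher and 1 lower with co-culture on LN/PC. Among these, UNC5B went from 2.03, 2.16 and 6.88 to 339.9, 299 and 493 on LN/PC (6.45 ± 0.46), with 1966, 1939.5 and 1712 in fibroblasts. TBX3 went from 0, 1.87 and 3.61 to 226, 159 and 217 (6.40 ± 0.58), with 349, 379 and 349.9 in fibroblasts. UNC5B, TBX3 and MSX1 were under 10 in every epithelial library outside LN/PC co-culture. They passed the filter on low values only through the LN/PC co-cultures, so they had to differ there. The same holds for BMPER and BGN among the modulators and for LRRC32 among the latent complex genes. Outside LN/PC co-culture, FBN2 and EMILIN1 of the latent complex genes reached 10 only in silk co-culture 3 (13.5 and 16.6). NOX4 of the TGF-beta response genes did so only in silk monoculture 2 (11.2). These genes, too, passed the filter only through the LN/PC co-cultures. Of 29 intracellular regulators, 2 were lower on silk alone, 1 was higher and 1 lower with co-culture on silk, and 2 were higher and 2 lower with co-culture on LN/PC. Of 4 other ligands and receptors, 1 was higher on silk alone, 0 were called with co-culture on silk by limma (1 at an unadjusted p under 0.05), and TGFB1I1 was higher with co-culture on LN/PC (1.61 ± 0.25).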

How the data were processed

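Poly-A RNA of 15 cultures was sequenced as directional libraries on a NovaSeqX plus, per the labels' protocols. The authors deposited 1 table of 15790 genes by 15 libraries; per the submitters' processing notes Salmon 1.10.3 and DESeq2 were used, and for build and annotation nothing is given in the sources used here. The table as deposited holds log2 values, never under 5.54, that behave as variance-stabilized counts, which no header states. They were inverted to normalized counts by q = (y - f)²/y, where y is 2 to the power of the value and f that of the floor. After inversion each library's median ratio to the gene means was 1.01, with a spread of 6.27e-09 over 13121 genes. The table holds no counts, so no count model was run.

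Genes at 10 or more in at least 3 libraries of a fit were tested on log2(normalized count + 1) with limma-trend (limma 3.58.1, R 4.3.3), Benjamini-Hochberg adjustment over all tested genes and a threshold of 0.05. The 12 epithelial libraries shared 1 fit (14433 genes), and the 9 monoculture libraries another (14502 genes). The test was checked on simulated data. Alternatives were pseudocounts, the low-value filter, the deposited log2 values, other scalings, only the libraries compared, a replicate block and leaving out each library.

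The members and lists were chosen with earlier results of these data known. Values are given per library for members called in a pairwise epithelial comparison with a log2 difference of at least 1 and a mean in the higher group of 50 or more, or with a mean of 1000 or more in any group. From each list and comparison up to 3 called genes per direction were eligible. Other members with values were chosen after their values were seen. Fibroblast RNA share is the median over 108 genes of the co-culture excess as a percent of the fibroblast excess. Genes absent from the table, such as BMP2 and BMP7, were not analysed here. Some measured genes are counted but not reported here by name.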

Additional observations from a re-analysis of the deposited data

Results flagged for a closer look

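For 11 members the effect of co-culture differed between silk and LN/PC by the limma-trend interaction test, given here as the log2 effect on silk minus that on LN/PC. In 8 of them the difference was negative: LTBP1 at -9.34 ± 1.101 (adjusted p = 4.61e-05), ENG at -7.84 ± 0.98 (adjusted p = 7.89e-05), FST at -6.56 ± 0.84 (adjusted p = 9.24e-05) and GREM1 at -5.02 ± 0.58 (adjusted p = 3.67e-05). The fitted FST value is set by the added 1 and is no estimate or bound of a fold, since all its libraries outside LN/PC co-culture were at 0; the same holds in part for ENG and LTBP1. FST, ENG, LTBP1 and ACVRL1 passed the filter on low values only through the LN/PC co-cultures, so they had to differ there. ACVRL1 stood at -4.80 ± 1.00 (adjusted p = 0.00568), LTBP2 at -2.74 ± 0.28 (adjusted p = 1.16e-05), FSTL1 at -2.58 ± 0.27 (adjusted p = 1.54e-05) and TGFBI at -1.66 ± 0.25 (adjusted p = 0.000377). All of these except TGFBI were higher in fibroblasts than in epithelial monocultures. The estimated fibroblast RNA share moved with the same contrast, at 12.9% in LN/PC and 0.0457% in silk co-cultures, and its part in these differences was not tested.

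In 3 members the difference was positive: GDF15 at 2.05 ± 0.57 (adjusted p = 0.0367), FSTL3 at 1.14 ± 0.26 (adjusted p = 0.0129) and SMAD7 at 0.95 ± 0.24 (adjusted p = 0.0189). Fibroblasts held less of each than the epithelial monocultures. With libraries scaled on epithelium-restricted genes, FSTL3 (0.92, adjusted p = 0.081) and SMAD7 (0.74, adjusted p = 0.0854) were no longer called.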

How the results depend on the processing

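Across 71 calls of members in the epithelial comparisons, 1389 alternative results were computed: 1220 kept the call, 169 lost it and 0 changed direction, and 40 calls were kept under every alternative in which they were tested. ENG and FST were not tested without any 1 of the LN/PC co-cultures, so their calls could not be lost there. Fitting only the libraries compared gave 3 members and 754 genes called between monocultures, 10 members and 1174 genes for co-culture on silk, and 1088 genes for co-culture on LN/PC. The deposited log2 values gave 8 members called for co-culture on silk. Epithelium-restricted scaling gave 10 members and 999 genes for co-culture on silk and 3780 genes for co-culture on LN/PC. Under that scaling the share of higher calls was 66.7% instead of 50.4% between monocultures, 38.1% instead of 51.3% between co-cultures, 94.6% instead of 77.1% for co-culture on silk, 96.5% instead of 62.3% for co-culture on LN/PC and 19.8% instead of 40.7% for the interaction; upper quartile scaling gave 67% for co-culture on silk. The sum of the markers put the fibroblast share at 0.109% on silk and 20.9% on LN/PC. Leaving out 1 library moved members called to 4 to 17 (monocultures), 20 to 34 (co-cultures), 3 to 8 (silk), 8 to 18 (LN/PC), 7 to 12 (interaction) and 34 to 47 (fibroblasts), and genes called to 695 to 3208, 3415 to 5732, 207 to 819, 753 to 2007, 465 to 1359 and 6865 to 8673. It moved the fibroblast share to 0.0119% to 0.0686% on silk and 11.9% to 14.4% on LN/PC, and the median percent of the fibroblast excess to 14.73% to 20.5%. Leaving 2 libraries in a group assumes that they vary like the others.

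Deviations of same-numbered libraries from their group means correlated at r from -0.234 to 0.182 (18 pairs, 2 over 0.1). Those of libraries with different numbers correlated at -0.244 to 0.318. Same-numbered libraries were not treated as pairs in the main fits. With 3 libraries a group this check cannot exclude a shared culture run, which the labels do not describe. With a replicate block, 9, 27, 6, 12 and 11 members were called in the 5 epithelial comparisons and 45 in the fibroblast comparison. Depth in reads is unknown, and members near 0 carry little information on fold.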
